A study of Mus musculus with 8 samples.

Results

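The proteasome subunit genes were taken as the protein-coding genes whose symbol begins with Psm, followed by a letter from a to g and a number. Of the 54752 genes listed for each brain, 50 met this rule, and 46 of them were among the 17865 genes with enough counts to be tested. RNA of whole E15.5 brains of wild type C57BL/6 mouse fetuses (C57BL/6Slac in the study's methods) had been sequenced after oligo(dT) capture, with 1 library per brain. The control group held 4 brains (F36 and F37 from females, M30 and M31 from males) of fetuses whose dam stayed in its home cage. The stress group held 4 brains (F34 and F35 from females, M28 and M29 from males) of fetuses whose dam had been exposed to chronic unpredictable mild stress in pregnancy. By the study's sample list all 4 control brains came from litter 21 and all 4 stress brains from litter 20, so that stress and litter cannot be told apart, and the p-values below measure the spread among littermates. Each library held between 25320109 and 29105710 counts assigned to genes. The brain label fitted the markers of neurons, whose 8 genes summed to between 5116 and 5332 CPM, the read counts scaled to the size of each library, in every brain.

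The proteasome is the large protease of the cytoplasm and nucleus that degrades proteins tagged with ubiquitin. Its 20S core is a barrel of outer α rings and inner β rings, and the β rings carry the proteolytic sites. The 19S particle caps the barrel, where its non-ATPase subunits recognise and strip ubiquitin and its ring of ATPases unfolds the substrate and opens the gate. In cells exposed to interferon the catalytic β subunits can be replaced by the immunoproteasome subunits β1i, β2i and β5i, and the cap by the PA28 activator. In developing neurons the ubiquitin-proteasome system is known for its part in axon growth, synapse formation and the turnover of cell cycle regulators.

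The 50 genes were grouped by role. There were 7 genes of the α ring, 7 of the constitutive β ring, 6 ATPases and 11 non-ATPase subunits of the 19S particle. The α and β rings form the 14 genes of the 20S core, and the ATPase and non-ATPase sets form the 17 genes of the 19S particle counted here. The other genes were the 3 immunoproteasome β subunits, 2 20S subunits with a restricted tissue range (Psma8 of the testis and Psmb11 of the thymus), 3 assembly chaperones of the 19S particle, 4 assembly chaperones of the 20S core, 5 activator genes, the inhibitor gene Psmf1 and Psmc3ip. The last of these carries a Psm symbol because its product binds Psmc3, but it acts in meiotic recombination and is no proteasome subunit. A few subunits that have no Psm symbol, such as Adrm1 and Sem1, were followed with the other genes of the pathway.

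All 31 genes of the 20S core and the 19S particle were abundant in every brain, with 1764 to 8879 counts per library. Per kilobase of exon, which allows levels of different genes to be compared, their mean levels over the 8 brains ran from 15.4 to 92.0 CPM, and their median was at the 94.3 percentile of the genes tested. In the α ring Psma6 had the highest level per kilobase (92.0 CPM) and Psma2 the lowest (31.4 CPM). In the β ring Psmb5, the β5 subunit with chymotrypsin-like activity, was highest at 86.4 CPM per kilobase, and Psmb1 was lowest at 28.8. Psmb6 (β1, caspase-like activity) was at 65.1 and Psmb7 (β2, trypsin-like activity) at 30.2 CPM per kilobase. Subunits of 1 particle are built in equal number, whereas the highest mRNA level of a ring was 2.92 times the lowest in the α ring and 3.0 times in the β ring. Among the ATPases Psmc5 was highest (78.6 CPM per kilobase) and Psmc2 lowest (20.7), and among the non-ATPase subunits Psmd2, the large scaffold of the base, was highest (72.8) and Psmd11, of the lid, lowest (15.4).

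The order and the spread within a ring depended on the length used. The exon length in the count tables joins the exons of all transcripts of a gene. With the length of the principal transcript alone, Psma7 (142 CPM per kilobase), Psmb6 (153) and Psmc1 (85.2) were highest in their classes, while Psma2, Psmb1, Psmc2, Psmd2 and Psmd11 kept their places. The highest level was then 3.59 times the lowest in the α ring and 2.03 times in the β ring. Which gene led the α ring, the β ring or the ATPases, and by how much, is therefore not fixed by these data.

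Outside the constitutive particles, by joined exon length the chaperones reached into the low end of the range of the subunits and the activators Psme1 to Psme4 lay within it. By the length of the principal transcript all assembly chaperones (12.5 to 20.1 CPM per kilobase) and Psme4 (23.7) lay below the lowest subunit (Psmd11, 34.5). The assembly chaperones are not part of the finished particle. By joined exon length they had mean levels between 4.0 CPM per kilobase (Psmg3) and 20.1 (Psmg2), with Psmd9 at 4.48 and Psmd10 (gankyrin) at 12.8. Psme3, which encodes the nuclear activator PA28γ, was the highest activator at 43.3 CPM per kilobase, before Psme1 (PA28α, 33.7), Psme2 (PA28β, 23.0) and Psme4 (PA200, 18.3). By the length of the principal transcript Psme1 (66.9) came before Psme3 (48.0), so the order of the activators depended on the length as well. The inhibitor gene Psmf1 (PI31) was at 9.12 CPM per kilobase and Psmc3ip at 5.89.

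**Figure D1:**
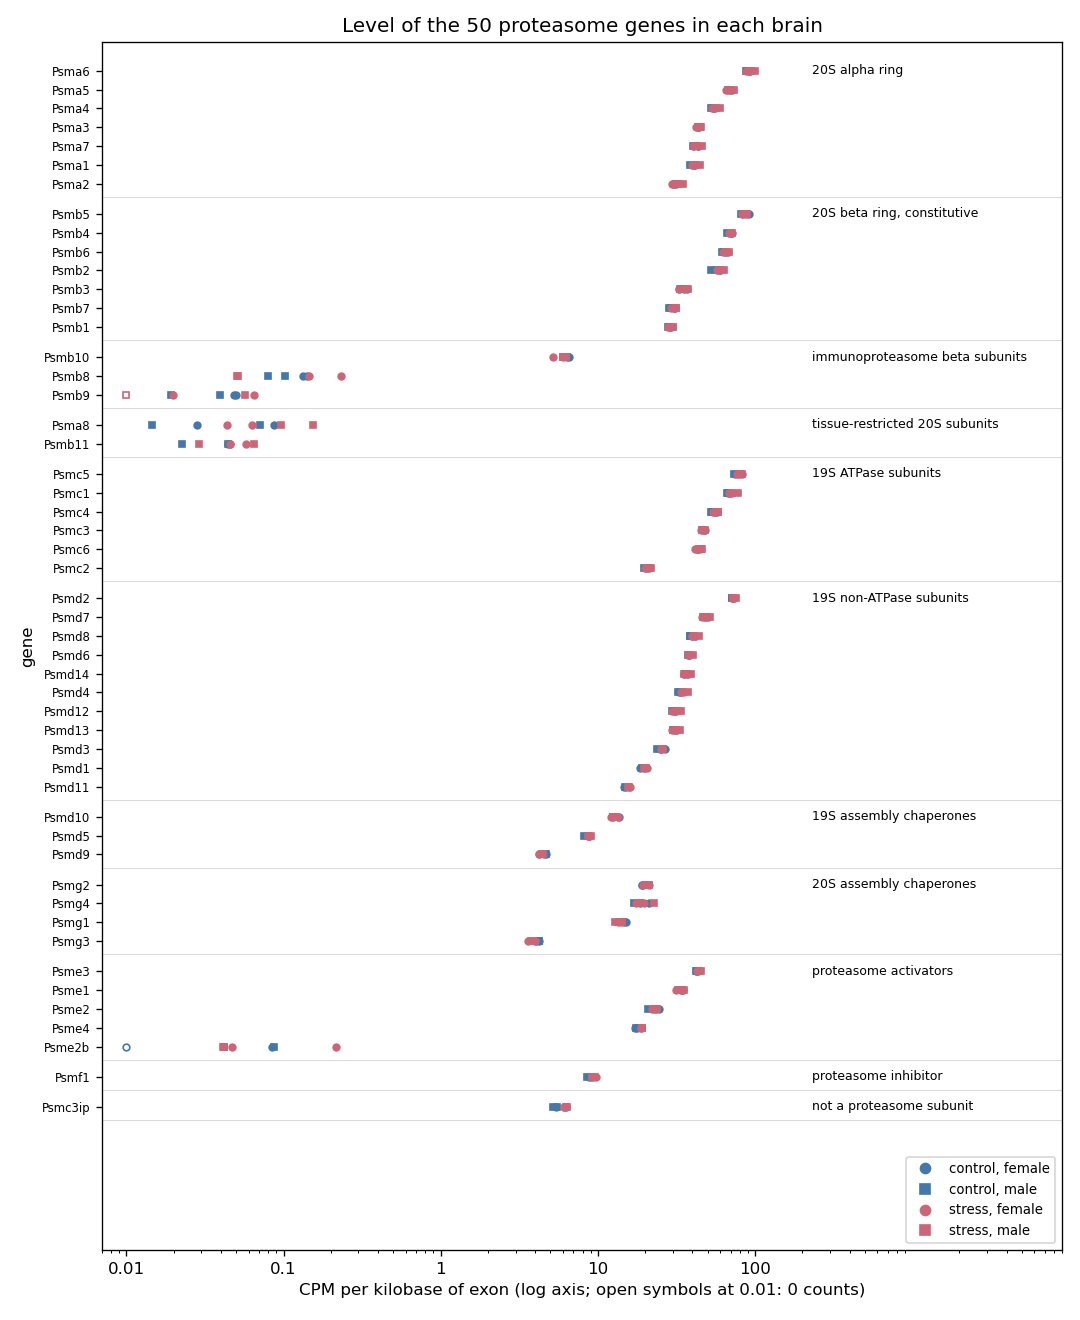
Level of each of the 50 genes in CPM per kilobase of exon (log axis) in each of the 8 brains, by role. The 31 genes of the 20S core and 19S particle have means between 15.4 and 92.0, Psmb10 a mean of 6.08, and Psmb8, Psmb9, Psma8, Psmb11 and Psme2b means below 0.2; an open symbol at 0.01 stands for 0 counts.

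The immunoproteasome genes were far below their constitutive counterparts. Psmb8 (β5i) had 4 to 16 counts per library, a mean of 0.117 CPM per kilobase, and Psmb9 (β1i) had 0 to 6 counts, a mean of 0.0373 CPM per kilobase. Psmb10 (β2i) was at 6.08 CPM per kilobase and was the only member of the immunoproteasome set with over 20 counts in a brain. In the control brains the level per kilobase of Psmb8 was 0.131% ± 0.0299 (SD, n = 4) of that of Psmb5, and the level of Psmb10 was 21.2% ± 0.514 (SD, n = 4) of that of Psmb7. These shares are set by the lengths used, and with the principal transcripts they were 0.220% ± 0.0502 and 9.35% ± 0.227 (SD, n = 4 each). The 4 members not tested were Psmb9, Psma8 (1 to 11 counts), Psmb11 (3 to 9 counts) and Psme2b (0 to 5 counts). Psme2b is a close copy of Psme2, and reads of one can be placed on the other. The 4 Psmb pseudogenes that matched the symbol pattern, but are not protein-coding, held 0 to 2 counts in every brain. Of the members tested, 5 share more than 10% of their exon bases with another gene (Psmb5 12.1%, Psmb7 11.8%, Psmc3ip 21.2%, Psmd13 10.1%, Psmd9 25.5%), and the study's methods name no strand setting for the counting, so their counts are less certain.

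Stress against control was tested first over all 8 brains with sex in the model. With edgeR's quasi-likelihood test and Benjamini-Hochberg adjustment, 2 of the 46 members were higher in stress at an adjusted p under 0.05 (4.35%), beside 6.49% of all genes tested, and 0 were lower, beside 7.27% of all genes. At an unadjusted p under 0.05, 8 members were higher (13.2% of all genes) and 2 lower (13.7% of all genes). DESeq2 called 1 member higher (4.19% of all genes) and 0 lower (5.1%), with 4 higher (9.65% of all genes) and 0 lower (10.3%) at an unadjusted p under 0.05. The share of members called was thus no larger than that of all genes. In bulk tissue fewer cells of a type and less RNA per cell cannot be told apart.

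Psme4 was the member with the lowest p. It encodes PA200, an activator of the nucleus that caps the 20S core and has been tied to the degradation of acetylated histones. In the order used from here on (females, then males), its level was 144, 149.7, 147 and 151 CPM in the control brains and 157, 158, 161 and 159.9 CPM in the stress brains. All 4 stress brains lay above all 4 control brains, in both sexes. The mean was 148 ± 3.01 CPM in control and 159 ± 1.51 CPM in stress (SD, n = 4 each), a log2 fold change (Log2FC) of 0.10 (SE 0.03) with an edgeR adjusted p of 0.0108, or 7.47% higher (95% interval 3.38% to 11.7%). The Log2FC was 0.10 in females alone and 0.10 in males alone. Without control M30 the adjusted p was 0.0617.

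Psmd4, the 19S subunit Rpn10 that binds ubiquitin chains, was the other member called. Its level was 91.7, 95.4, 93.4 and 91.4 CPM in control and 99.0, 95.4, 97.8 and 105 CPM in stress. The groups overlapped at F37 and F35, and stressed male M29 was the highest brain. The Log2FC was 0.10 (SE 0.03, edgeR adjusted p = 0.0473), 6.92% higher with a 95% interval of 2.08% to 11.99%. This call was not kept with DESeq2 (adjusted p = 0.0960) and was made in 2 of the 8 fits that left out 1 brain, with adjusted p-values from 0.0267 to 0.244 (the last without stress M29).

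The members nearest to the threshold on its other side were Psmc1, Psmf1 and Psmd9. Psmc1 (Rpt2, the ATPase whose tail opens the gate of the 20S core) was at 135, 131, 129.7 and 127 CPM in control and 133, 139, 138 and 152 CPM in stress, a Log2FC of 0.10 (SE 0.03, edgeR adjusted p = 0.0506). Its groups overlapped at stressed female F34, and the adjusted p ran from 0.0200 to 0.299 when 1 brain was left out. Psmf1 (PI31, first described as an inhibitor of the 20S core) was at 58.2, 56.4, 57.5 and 54.8 CPM in control and 59.8, 62.5, 61.7 and 58.9 CPM in stress (Log2FC 0.10, SE 0.03, edgeR adjusted p = 0.0610). Psmd9 (p27, a chaperone of the ATPase ring) was at 32.9, 34.02, 33.6 and 33.8 CPM in control and 30.5, 30.6, 32.4 and 31.9 CPM in stress (Log2FC -0.10, SE 0.04, edgeR adjusted p = 0.106). In Psmf1 and Psmd9 the groups did not overlap, although neither passed the test. In all, 2 members had every stress brain above every control brain (Psme4 and Psmf1, 8.2% of all genes tested) and 2 had every stress brain below (Psmd9 and Psmg3, 8.22% of all genes).

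**Figure D2:**
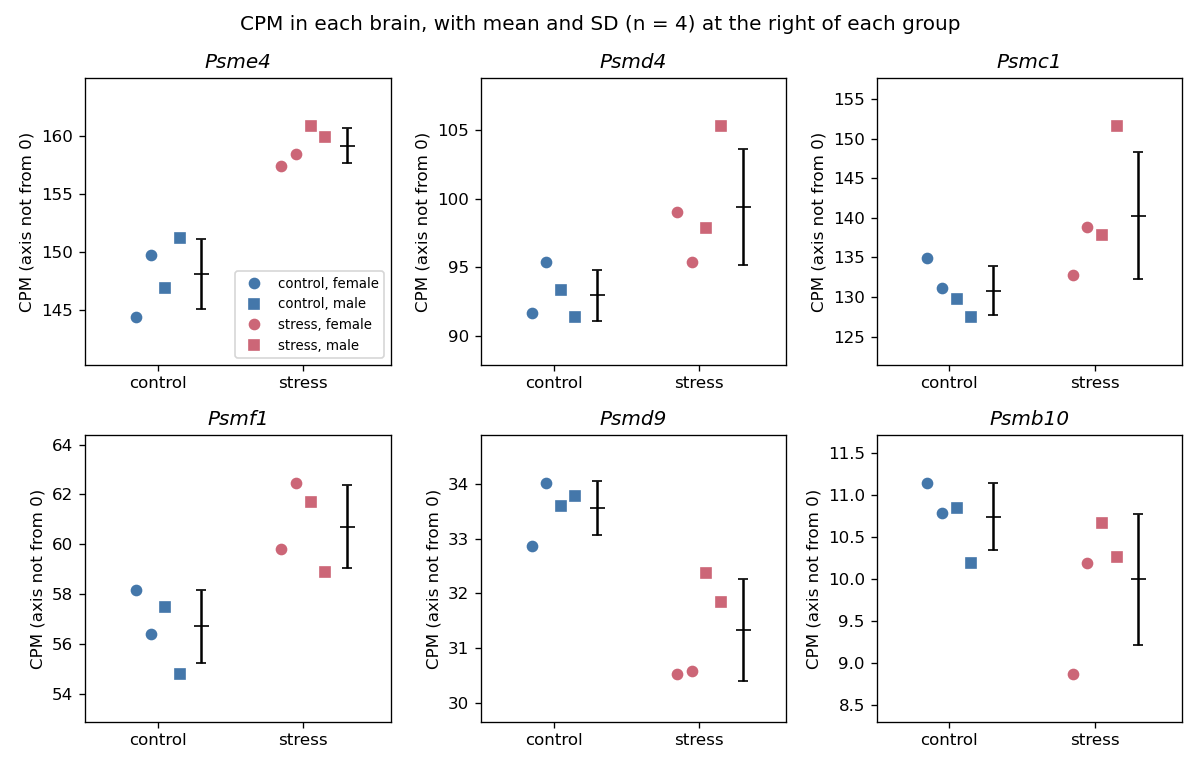
CPM of 6 genes in each brain (circles females, squares males; vertical axes do not start at 0), with the group mean and SD (n = 4) to the right of each group. Psme4 and Psmf1 have all stress brains above all control brains, Psmd9 has all stress brains below, and Psmd4, Psmc1 and Psmb10 overlap.

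The differences of the other members were small. The median Log2FC of the 46 members was 0.02, with 36 of 46 above 0, beside a median of 0.00 and 50.6% above 0 over all genes tested. By role, the median was 0.02 in the α ring (6 of 7 above 0), 0.02 in the β ring (5 of 7), 0.02 among the ATPases (5 of 6) and 0.04 among the non-ATPase subunits (11 of 11). The 20S core and the 19S particle thus had medians of 0.02 and 0.03. The 95% intervals of the 31 subunits together reached from -6.42% to 12.6%, so a change of any subunit beyond these bounds was outside its interval. The median coefficient of variation of these 31 genes within a group was 2.78% in control and 4.26% in stress.

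The chaperones and activators gave no further call. Among the 4 chaperones of the 20S core, Psmg3 was at 12.1 ± 0.271 CPM in control and 10.99 ± 0.429 CPM in stress (SD, n = 4 each; Log2FC -0.14, edgeR adjusted p = 0.139). Psmg1 had a Log2FC of -0.08 and Psmg4 of 0.07, with adjusted p-values of 0.359 and 0.669. The PA28 genes Psme1, Psme2 and Psme3 had Log2FC values of -0.01, -0.02 and 0.05, with edgeR adjusted p-values of 0.942, 0.872 and 0.288. Psmc3ip was at 10.2 ± 0.902 CPM in control and 11.3 ± 0.242 CPM in stress (Log2FC 0.15, edgeR adjusted p = 0.179).

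**Figure D3:**
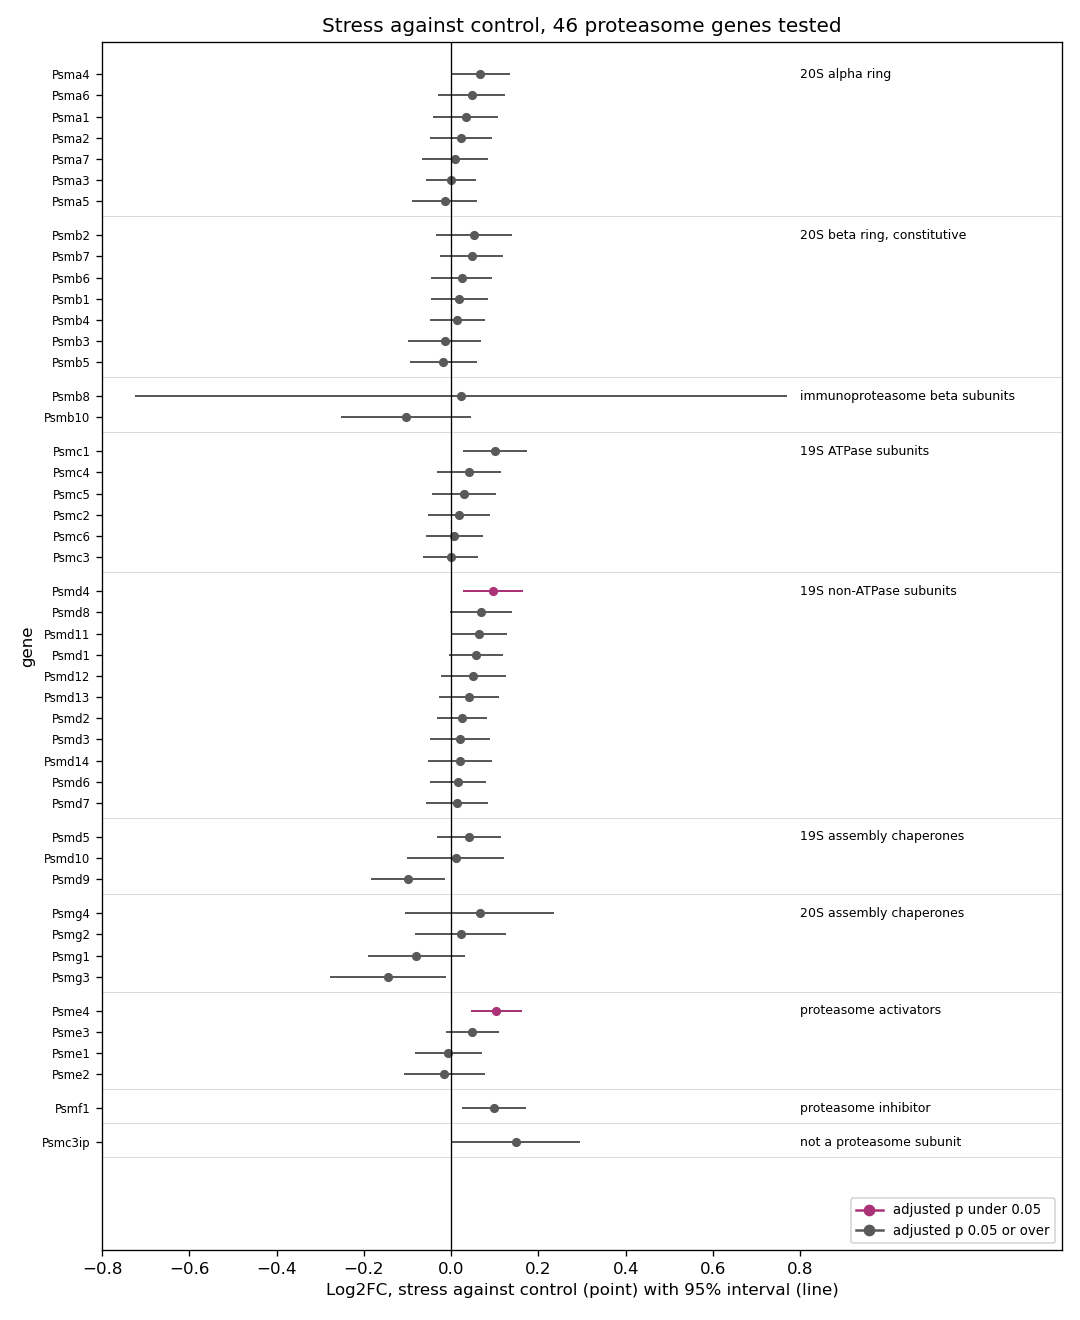
Log2FC of stress against control for the 46 members tested, by role, with 95% intervals from the edgeR fit over 8 brains. Psme4 and Psmd4 (both 0.10) pass an adjusted p of 0.05, and the wide interval of Psmb8 (-0.72 to 0.77) goes with its 4 to 16 counts.

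The immunoproteasome was then set against the constitutive subunits. In the same fit Psmb10 had a Log2FC of -0.10 (SE 0.07, edgeR adjusted p = 0.380) and Psmb8 of 0.02 (SE 0.36, adjusted p = 0.979). The interval of Psmb8, from -39.4% to 70.3%, shows that a sizeable difference was not detectable at this depth. As a share of Psmb7, the level of Psmb10 per kilobase was 21.1%, 20.7%, 21.9% and 21.04% in control and 17.7%, 19.7%, 19.8% and 19.1% in stress. All 4 stress brains were below all 4 control brains, a difference of -0.15 on the log2 scale (means 21.2% and 19.1%). The two-sided exact permutation p was 0.0286, the smallest that 4 against 4 brains can give, and 0.114 after adjustment over the 4 ratios with a value. Fitted in each sex alone, Psmb10 had a Log2FC of -0.20 in females and -0.01 in males, and Psmb7 of -0.04 and 0.14. In males the lower ratio thus went with a higher Psmb7. The share of Psmb8 in Psmb5 was 0.131% ± 0.0299 in control and 0.141% ± 0.104 in stress (SD, n = 4 each; exact permutation p = 0.771, adjusted 0.771). Psmb9 had 0 counts in M29 and its ratio to Psmb6 was not formed. Psme1 was at 79.2% ± 1.64 of Psme3 in control and 76.3% ± 3.41 in stress, and Psme2 at 54.3% ± 3.20 and 51.9% ± 1.2 (SD, n = 4 each; exact permutation p = 0.2 and 0.229, both 0.305 adjusted). With the principal transcripts the control shares became 142% ± 2.94 and 89.9% ± 5.3, so whether Psme1 was below or above Psme3 depended on the length, while the log2 differences and p-values of the ratios are the same by construction. No ratio passed the adjusted threshold. A single ratio could not have passed it alone, since the smallest possible p of 0.0286 becomes 0.114 after this adjustment.

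The sexes were compared next. No member was called between females and males (0.056% of all genes higher in females, 0.0336% lower) by edgeR or DESeq2, and at an unadjusted p under 0.05 there was 1 higher in females and 1 lower by either tool (by edgeR 3.23% and 2.68% of all genes). The higher one was Psmb8, with 10, 11, 11 and 16 counts in the 4 females and 6, 8, 4 and 4 counts in the 4 males (Log2FC 1.17, SE 0.37, edgeR adjusted p = 0.668). The females and males did not overlap in this gene, although its counts are near the lowest tested. The lower one was Psma2 (Log2FC -0.09, SE 0.03, edgeR adjusted p = 0.734). Psmd10, the only member on the X chromosome, had a Log2FC of 0.04 (SE 0.05, edgeR adjusted p = 0.945).

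Whether the stress difference itself differed by sex was tested with the sex by stress interaction, given as Log2FC in females minus Log2FC in males. No member was called by edgeR (lowest adjusted p = 0.466) or DESeq2, beside 0.0056% of all genes called negative by edgeR and 0% positive. At an unadjusted p under 0.05, however, 16 of 46 members were negative (34.8%) and 0 positive, beside 3.33% and 2.98% of all genes, and DESeq2 gave 12 negative (1.56% of all genes) and 0 positive (0.879%). The 16 were 11 of the 14 genes of the 20S core and 5 of the 17 genes of the 19S particle. The interaction was below 0 in 41 of the 46 members, beside 49.3% of all genes. All 16 were measured in the same 8 brains, with 2 brains per sex and group, so they are not 16 separate observations.

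Fitted in each sex alone, the subunits lay above 0 in males, and most of them below 0 in females. In males all 31 genes of the 20S core and 19S particle had a Log2FC above 0 (50.5% of all genes), with a median of 0.09. In females 5 of the 31 were above 0 (50.4% of all genes), with a median of -0.03. The 20S core had medians of 0.10 in males and -0.05 in females, and the 19S particle 0.06 and -0.01. With 2 against 2 brains, edgeR called 7 members higher in males (3.68% of all genes) and 0 lower (4.81%), with 20 higher (10.5% of all genes) and 0 lower (11.4%) at an unadjusted p under 0.05. In females it called 0 higher (1.64% of all genes) and 0 lower (2.27%), with 1 higher (8.49% of all genes) and 3 lower (9.22%) unadjusted. DESeq2 was not run within a sex. The 7 genes were Psmc1 (Log2FC 0.17, adjusted p = 0.00801), Psmb2 (0.17, 0.0201), Psma6 (0.15, 0.0175), Psmb7, Psmc4, Psmd4 and Psmd8 (0.14 each, adjusted p between 0.0198 and 0.0400).

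**Figure D4:**
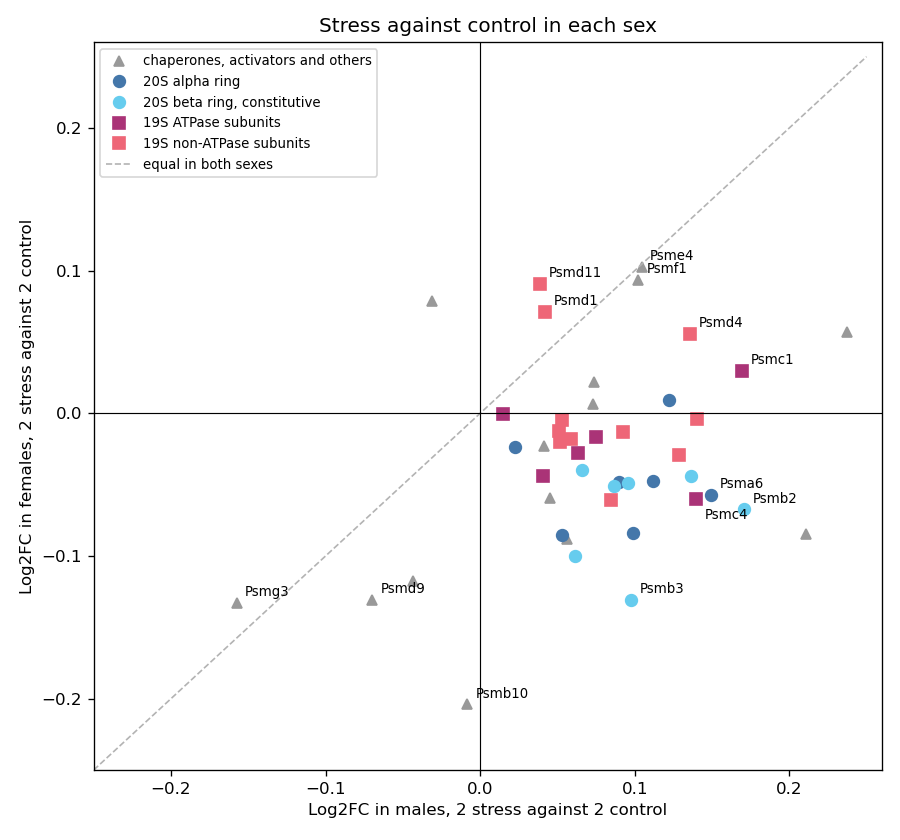
Log2FC of stress against control in females (vertical) and in males (horizontal), 2 against 2 brains each, for the 45 members tested in both sexes; the dashed line marks equal values. All 31 subunits of the 20S core (circles) and 19S particle (squares) lie right of 0, 26 of them below 0 in females, while Psme4 and Psmf1 lie near the dashed line.

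The brains behind this pattern can be read in single genes. Over all members tested, Psmb8 (1.27) and Psmg4 (-0.30) had the interactions furthest from 0. Among the 31 subunits of the 20S core and 19S particle it was Psmb2 (β4), at -0.24 (SE 0.07, edgeR adjusted p = 0.466). The level of Psmb2 was 72.3, 72.6, 68.6 and 63.7 CPM in control and 68.6, 69.7, 72.4 and 76.6 CPM in stress. Both stressed females were thus below the control females and both stressed males above the control males. Psmb3 (β3) was at 84.6, 80.9, 82.2 and 76.2 CPM in control and 75.5, 75.6, 85.7 and 83.8 CPM in stress (interaction -0.23, SE 0.06). Psma6 (α1) was at 115, 114, 108 and 109 CPM in control and 113, 108, 117 and 124 CPM in stress (interaction -0.21, SE 0.06). Psmc4 (Rpt3) was at 125, 121, 115 and 114 CPM in control and 119, 116, 126 and 126 CPM in stress (interaction -0.20, SE 0.06). In Psmb2, Psma6 and Psmc4 both control females were also above both control males, and in Psmb3 they overlapped. In all, 12 members showed the pattern with both stressed females below and both stressed males above the control brains of their sex (26.1%, beside 2.62% of all genes): Psma1, Psma2, Psma6, Psma7, Psmb1, Psmb2, Psmb3, Psmb4, Psmb7, Psmc3, Psmc4 and Psmd6. Only Psmb8 showed the opposite pattern (2.07% of all genes). Psme4, called over all brains, had an interaction of 0.00 (95% interval -0.11 to 0.11).

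**Figure D5:**
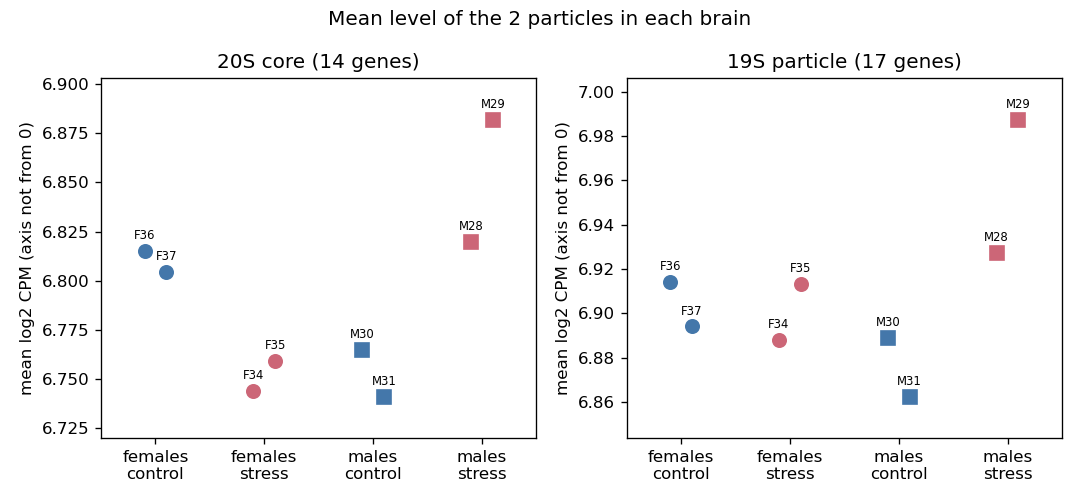
Mean log2 CPM of the 14 genes of the 20S core and the 17 genes of the 19S particle in each brain (vertical axes do not start at 0). In the 20S core the means are 6.82 and 6.80 in control females, 6.74 and 6.76 in stressed females, 6.76 and 6.74 in control males and 6.82 and 6.88 in stressed males; M29 is highest in both particles.

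The mean log2 CPM of the 14 genes of the 20S core shows the same order. It was 6.82 and 6.80 in the control females and 6.74 and 6.76 in the stressed females. In males it was 6.76 and 6.74 in control and 6.82 and 6.88 in stress. Control males and stressed females were thus the low brains in the 20S core, and M29 was the highest. In the 19S particle the females overlapped, with means of 6.91 and 6.89 in control and 6.89 and 6.91 in stress. The males were at 6.89 and 6.86 in control and 6.93 and 6.99 in stress.

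Other measures moved with this pattern. The interaction followed exon length among the more abundant genes. Among genes with a mean of at least 70.5 CPM, split into 4 bins of equal size by exon length, its median was -0.06, -0.01, 0.02 and 0.05 from the shortest to the longest bin, and 24 of the 31 subunits were in the shortest bin, where their median was -0.14. With offsets that take out the relation to length in each library, the medians of the 4 bins became -0.03, -0.01, 0.00 and -0.01. The median of the 31 subunits went from -0.14 to -0.09, and 9 members had an unadjusted interaction p under 0.05 (2.42% of all genes). With offsets for GC content 18 members did (3.86% of all genes). One brain, the stressed male M29, weighed most: without it 6 members had an unadjusted interaction p under 0.05 (2.92% of all genes) and the median of the subunits was -0.09, with 27 of 31 below 0. All 14 genes of the 20S core remained below 0 when any 1 of the 8 brains was left out and with either offset. Length offsets also changed the fit of stress against control in females alone. There 10 of the 31 subunits were above 0, beside 5 without offsets. In the 19S particle it was 9 of 17, beside 4 without offsets, with a median of 0.00. In the 20S core it was 1 of 14 with and without them.

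Markers of several cell types also moved with stress. Of 7 markers of dividing cells edgeR called 6 higher in stress, beside 6.49% of all genes tested. Their sum was 471 to 512 CPM in control and 534 to 617 CPM in stress. Their median Log2FC was 0.23 in females and 0.25 in males. Of 7 radial glia markers edgeR called 4 higher (medians 0.09 and 0.12). Of 8 neuron markers it called 4 lower (-0.10 and -0.03) and of 6 endothelial markers 3 lower (-0.14 and -0.09), beside 7.27% of all genes. DESeq2 called 6 of the dividing cell, 3 of the radial glia, 3 of the neuron and 2 of the endothelial markers. By DESeq2 4.19% of all genes were higher and 5.1% lower. In these 4 lists the medians of females and males had the same sign. Some markers went against their list over all 8 brains, none of them called by edgeR. Of the radial glia markers, Hes5, Hes1 and Slc1a3 had Log2FC values of -0.10, -0.08 and -0.04. The neuron markers Neurod6 and Dcx had values of 0.09 and 0.06, and the endothelial marker Tie1 of 0.14. Of 8 microglia markers 0 were called by edgeR or DESeq2, and 0 had an unadjusted edgeR p under 0.05, with sums of 33.8 to 37.1 CPM in control and 32.6 to 36.7 CPM in stress (medians -0.11 in females and 0.03 in males), and of 8 erythroid markers tested 2 were called higher and 1 lower (medians -0.08 and 0.09). In these lists, as in the subunits, the medians were negative in females and positive in males. The called erythroid genes (Hbb-y, Hba-x and Hbb-bs) each had the same sign in both sexes. The microglia markers Ptprc and Tyrobp were positive in females and negative in males. The part of these cell types in the proteasome values was not tested.

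The other genes of the pathway were taken from a list of 33 genes, all tested. By edgeR 2 were called higher and 1 lower in stress, beside 6.49% and 7.27% of all genes tested. Nploc4, a cofactor of the segregase VCP that pulls tagged proteins out of complexes, was at 68.2 ± 1.11 CPM in control and 73.9 ± 1.23 CPM in stress (SD, n = 4 each; Log2FC 0.12, edgeR adjusted p = 0.0129). Nfyb, a subunit of the factor that binds CCAAT boxes, was at 73.5 ± 0.971 and 81.01 ± 3.3 CPM (Log2FC 0.14, edgeR adjusted p = 0.00443). Ubqln4, a shuttle that carries tagged proteins to the proteasome, was lower, at 142 ± 5.25 and 129.9 ± 3.39 CPM (Log2FC -0.13, edgeR adjusted p = 0.00640). In each of these 3 genes the groups did not overlap, as in 8.2% of all genes tested with stress higher and 8.22% with stress lower. Over all 8 brains, of the 12 other subunits, chaperones and bound factors 0 were called by edgeR or DESeq2 (1 lower at an unadjusted edgeR p under 0.05, median Log2FC -0.03), and of the 6 ubiquitin and E1 genes also 0 (0 unadjusted, median 0.01). Within a sex, edgeR called 1 gene of each of these sets, beside 2.27% of all genes called lower in females and 3.68% higher in males. The medians of both sets were negative in females (-0.06 and -0.03) and positive in males (0.01 and 0.03), as in the subunits. In females and males the medians were 0.02 and 0.01 for the shuttle and segregase genes and 0.04 and 0.01 for the transcriptional regulators. The assembly factor Pomp was called lower in females alone (Log2FC -0.18, SE 0.05, adjusted p = 0.0196), at 107 and 104 CPM in control and 93.1 and 93.3 CPM in stress, with a Log2FC of 0.03 in males. The ubiquitin gene Ubb was called higher in males alone (Log2FC 0.11, SE 0.03, adjusted p = 0.0308), with a Log2FC of -0.03 in females, and was not called in males with length offsets. The transcription factor Nfe2l1 (Nrf1), which drives proteasome genes when the proteasome is inhibited, was at 146 ± 2.36 CPM in control and 146 ± 4.65 CPM in stress. Of 11 genes of antigen processing and the interferon response edgeR called 0 higher and 1 lower, beside 6.49% and 7.27% of all genes. The lower one was Irf9, at 25.9 ± 1.28 CPM in control and 23.0 ± 1.45 CPM in stress (Log2FC -0.17, edgeR adjusted p = 0.0275; DESeq2 adjusted p = 0.0776).

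Promoter windows from RefSeq (build GRCm38.p6, 250 bases before and 50 after the start) were found for 42 of the 50 members. The windows were searched on both strands for the core of the antioxidant response element (TGACNNNGC) that Nrf1 binds, the CCAAT box, the gamma-activated sequence (TTCNNNGAA) and the core of the interferon-stimulated response element (GAAA, 2 bases of any kind, then GAAA). The first was found in 6 members (14.3%, beside 12.4% of 32851 promoters), the CCAAT box in 15 (35.7%, beside 37.4%), the gamma-activated sequence in 3 (7.14%, beside 8.3%) and the interferon core in 5 (11.9%, beside 3.44%). The members with the interferon core were Psmb3, Psmd4, Psmd9, Psme1 and Psmg4. A match of letters is a description of the sequence and not a binding site. The 250 bases before the start are shown, with matches in capitals, for the called subunit Psmd4 at chr3:95042615-95042864 (minus strand). They are also shown for Psmb3 at chr11:97703184-97703433 (plus strand), which had 1 of the interactions furthest from 0 among the 31 subunits. The catalytic subunits Psmb5 at chr14:54617996-54618245 (minus strand) and Psmb6 at chr11:70525107-70525356 (plus strand), shown last, hold the antioxidant core.
Psmd4: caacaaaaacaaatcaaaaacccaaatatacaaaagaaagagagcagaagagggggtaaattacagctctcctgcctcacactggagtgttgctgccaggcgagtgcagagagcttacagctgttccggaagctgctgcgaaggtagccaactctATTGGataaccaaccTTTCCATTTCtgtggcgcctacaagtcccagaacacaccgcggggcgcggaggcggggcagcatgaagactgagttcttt
Psmb3: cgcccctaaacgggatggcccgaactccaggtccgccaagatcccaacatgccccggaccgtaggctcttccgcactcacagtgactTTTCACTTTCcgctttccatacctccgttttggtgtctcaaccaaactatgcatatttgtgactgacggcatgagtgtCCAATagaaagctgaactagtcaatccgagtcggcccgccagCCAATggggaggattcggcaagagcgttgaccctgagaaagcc
Psmb5: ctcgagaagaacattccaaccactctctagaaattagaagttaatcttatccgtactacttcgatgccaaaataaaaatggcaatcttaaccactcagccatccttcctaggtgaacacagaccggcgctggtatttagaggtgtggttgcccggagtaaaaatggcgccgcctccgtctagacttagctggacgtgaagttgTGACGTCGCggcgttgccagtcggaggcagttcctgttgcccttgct
Psmb6: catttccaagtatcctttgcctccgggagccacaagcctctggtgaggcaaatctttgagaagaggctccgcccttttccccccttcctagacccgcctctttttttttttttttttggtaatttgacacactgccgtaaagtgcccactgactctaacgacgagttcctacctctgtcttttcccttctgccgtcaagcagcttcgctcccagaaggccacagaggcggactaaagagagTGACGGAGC
In Psmd4 a CCAAT box on the other strand begins 95 bases before the start and the interferon core, also on the other strand, 80 bases before. Psmb3 holds CCAAT boxes at 85 and 43 bases before the start and the interferon core, on the other strand, at 163. The antioxidant core begins 47 bases before the start in Psmb5 and 9 bases before in Psmb6. Psmd4 and Psmb3 thus hold the same pair of motifs, with stress differences over all brains of 0.10 and -0.01.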

How the data were processed

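RNA-seq of 8 E15.5 fetal brains was used (4 control, 4 stress). The authors trimmed paired reads with Trim Galore, aligned them to mm10 with TopHat2 (version 2.1.1 per the submitters' processing notes) and counted read pairs on GENCODE vM20 exons per gene with featureCounts 1.6.3. The deposited values are raw counts per gene and brain, without normalization or filter. Symbols were taken from GENCODE vM21 of the same build, which matched 54723 of 54752 identifiers and gave the coordinates of 49 of the 50 members unchanged. Where the annotation holds near copies or overlapping genes, such counts can be lost or placed on the other gene.

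Genes were kept by filterByExpr (minimum count 10), normalized by TMM and tested in R 4.3.3 with edgeR 4.0.16 (limma 3.58.1) by glmQLFit and glmQLFTest with sex and condition, or with their interaction, and called at an adjusted p under 0.05. CPM used TMM library sizes. Standard errors and 95% intervals came from the Log2FC and F value. The study's model also held batch, and no batch is named for these 8 brains. DESeq2 1.42.0, other normalizations, no filter, single sexes, offsets by lowess (span 0.3) and leaving out each brain were alternatives. Ratios of levels were compared by exact permutation of brains, with adjustment over the ratios with a value. The fits were tested on simulated data. Named with values are called members, the immunoproteasome and constitutive counterparts, activators, class extremes, the 3 members nearest the threshold, members under 10 counts and called pathway genes. Members of the sex pattern, Psmg1, Psmg3, Psmg4, Psmc3ip, Psmd10, Psma2, Pomp, Ubb and Nfe2l1 were named after their values were seen. The members and lists were chosen with earlier results of these data known.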

Additional observations from a re-analysis of the deposited data

Results flagged for a closer look

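In 92 groups of 4 brains (46 members, control and stress), 2 had 1 brain set apart from the other 3 by a gap large against the range of the group. Chance flags about 1 in 20 groups, so 2 of 92 is not a pattern. Psmd10 was at 19.9 CPM in control female F36, beside 18.2 to 18.4 in the other control brains. Psmg3 was at 11.7 CPM in control female F37, beside 12.2 to 12.3 in the others.

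For 13 members every stressed brain of 1 sex lay on one side of the control brains of that sex and every stressed brain of the other sex on the opposite side. This ordering is not itself a test, and none of the 13 had an adjusted interaction p under 0.05 by edgeR. The Log2FC in females minus that in males was -0.24 for Psmb2, -0.23 for Psmb3, -0.21 for Psma6, -0.20 for Psmc4, -0.18 for Psma7, -0.18 for Psmb7, -0.16 for Psma1, -0.14 for Psma2, -0.14 for Psmb1, -0.11 for Psmb4, -0.085 for Psmc3 and -0.072 for Psmd6. For Psmb8, with 4 to 16 counts per library, it was 1.27.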

How the results depend on the processing

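The count of members called higher in stress (2 as reported) was 1 with DESeq2, 1 with upper-quartile factors, 0 in females alone and 7 in males alone. Over all brains it was 3 with length offsets and 3 without the sex covariate, with Psmc1 added. It stayed at 2 without the filter on low counts, without control F36 and without stress F34, with Psmc1 in place of Psmd4. Within a sex, length or GC offsets were added after seeing the data and gave 0 and 0 in females alone and 6 and 8 in males alone. Leaving out 1 brain gave 0 to 2, with 0 without control M30 and 1 without control M31, stress M28 or stress M29. The count of 16 members with an unadjusted interaction p under 0.05, also chosen after seeing the data, was 9 with length offsets and ran from 6 (without stress M29) to 20 when 1 brain was left out. Of the pathway list, 2 genes higher became 0 in females alone with or without offsets, and 1 to 2 when 1 brain was left out, and 1 lower (Ubqln4) became 2 with GC offsets and in females alone was 1 other gene, Pomp. Ratios with principal transcript lengths were also added after seeing the data. The log2 difference of the Psmb8 to Psmb5 ratio (-0.19) ran from -0.62 to 0.14 when 1 brain was left out. That of Psmb9 to Psmb6 was -0.68 with 0.5 counts added and 0.19 without stress M29. That of Psmb10 to Psmb7 ran from -0.17 to -0.12. Over single genes 774 of 963 values kept their direction and side of the threshold, 147 values that were not called had another sign, 23 passed the threshold, 19 no longer passed it and 0 called values reversed. The cause of these changes was not tested. No paired analysis was possible because the groups share no replicate numbers. With 1 litter in each group, 2 brains per sex and group and the low counts of Psmb8 and Psmb9, the precision for small differences and for the immunoproteasome is low.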
